A study of Mus musculus with 12 samples.

Results

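Hedgehog signaling was examined in cultured mouse endometrial cells through 9 genes chosen by name: the ligand genes Ihh, Shh and Dhh, the receptor gene Ptch1, the transducer gene Smo, the transcription factor genes Gli1, Gli2 and Gli3, and Hhip, which encodes a ligand-binding inhibitor. All 9 were found among the 55385 genes of the deposited tables. RNA sequencing libraries came from 3 groups of 4, all of C57BL/6 origin: primary cultured normal endometrial cells (title code B6), the endometrial cancer line mECC (code DM) and the endometrial cancer line HPmECC (code WT). Overexpressed Myc is named in the design text for part of the cancer lines, without a label that ties it to mECC or HPmECC. The title codes are not explained, and neither the age of the animals, further alleles, the clonality of a line nor separate cultures or animals behind the 4 replicates are given. The p-values thus cover the spread among these libraries, which may be technical.

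Hedgehog ligands are secreted proteins that bind Patched receptors. Without ligand, Patched restrains Smoothened; with ligand, this restraint is lifted, Smoothened acts through the primary cilium, and GLI factors shift from repressors, mainly made from Gli3, to activators, mainly made from Gli2. Gli1, Ptch1 and Hhip are themselves induced by active signaling and are widely used as its readouts. In the uterus the epithelium makes Ihh under the control of progesterone, and the stroma beneath it carries Ptch1, Smo and the GLI factors.

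Library totals ran from 16332060 to 26873582 counts. The epithelial markers that check the label of the cells (12 genes, among them Epcam, Cdh1 and the keratins) summed to 9560 to 9904 CPM (counts scaled to library size with edgeR's TMM factors) in normal libraries, 1621 to 1661 CPM in mECC and 309.5 to 325 CPM in HPmECC, with no marker at 0 in any group. In HPmECC most of that sum came from Krt7, Krt8, Krt18 and Krt19, at 30.8, 124.3, 61.0 and 96.4 CPM. Epcam and Cdh1 stood at only 0.34 and 0.93 CPM in HPmECC, and Ap1m2 held 1 count over that group. The sum of the 10 fibroblast and stromal markers was higher in the lines, at 2183 to 2720 CPM in normal libraries, 8441 to 9329 in mECC and 9092 to 9788 in HPmECC, but the markers did not move together. Against normal cells 6 were called higher in each line, among them Col3a1 and Postn, and 4 lower (Col1a2, Dcn, Lum and Thy1), and between the lines 5 were higher and 5 lower. Thy1 passed the filter on low counts through the normal group alone, so its lower calls against normal were set by the filter. The normal cultures also held smooth muscle (2687 to 3160 CPM over 8 markers), mesothelial (474 to 527 CPM over 6), leukocyte (322 to 412 CPM over 8) and endothelial transcripts (129 to 145 CPM over 8). In both lines these summed lower, to at most 362, 59.2, 60.8 and 18.9 CPM. Of their markers, Wt1, Upk1b and Tyrobp were at 0 in mECC, as was Thy1 of the stromal list. Upk3b, Upk1b, Lrrn4, Cdh5, Tek, Ptprc and Tyrobp were at 0 in HPmECC. Other markers did not fall as far. Mesothelial Bnc1 stood at 36.73, 16.35 and 41.07 CPM in normal, mECC and HPmECC, and endothelial Egfl7 at 4.947, 3.638 and 10.66 CPM. Leukocyte marker Cd14 stood at 98.97 CPM in normal cells and 45.41 CPM in mECC. In HPmECC against normal, 5 mesothelial markers were called lower and 1, Bnc1, higher, and likewise 5 and 1 endothelial markers. Over all tested genes 86.4% were called in this comparison, 43% higher and 43.3% lower. Mesothelial Upk3b, Wt1, Upk1b and Lrrn4 passed the filter through the normal group alone, so their lower calls were set by the filter. With median-of-ratios factors in place of TMM, or with DESeq2, 5 mesothelial markers were called lower and 0 higher. The part of these cell types in the results below was not tested. In such bulk libraries fewer cells of a type and less RNA per cell cannot be told apart.

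Between the ligands and the receptor the groups ran in opposite directions. The normal cultures held Ihh and Dhh transcripts and the least Ptch1, and both cancer lines held almost no ligand transcripts and more Ptch1, Smo, Gli2 and Gli3. The sequences that lie just before the starts of Ihh, Dhh and Ptch1 are given because these are the genes at both ends of that contrast; each is the 250 bases upstream of the start in RefSeq on GRCm38.p6, 5′ to 3′ on the gene's strand, with CpG dinucleotides in capitals.
Ihh: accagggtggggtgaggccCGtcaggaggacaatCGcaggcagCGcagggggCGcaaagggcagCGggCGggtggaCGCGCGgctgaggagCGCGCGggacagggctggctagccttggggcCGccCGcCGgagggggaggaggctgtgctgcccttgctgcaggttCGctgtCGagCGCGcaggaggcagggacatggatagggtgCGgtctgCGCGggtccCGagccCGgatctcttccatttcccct
Dhh: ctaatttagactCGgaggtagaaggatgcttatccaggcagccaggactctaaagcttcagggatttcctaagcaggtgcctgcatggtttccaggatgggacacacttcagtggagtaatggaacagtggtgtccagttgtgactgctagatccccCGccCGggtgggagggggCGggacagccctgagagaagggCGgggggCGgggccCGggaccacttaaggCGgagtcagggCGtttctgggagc
Ptch1: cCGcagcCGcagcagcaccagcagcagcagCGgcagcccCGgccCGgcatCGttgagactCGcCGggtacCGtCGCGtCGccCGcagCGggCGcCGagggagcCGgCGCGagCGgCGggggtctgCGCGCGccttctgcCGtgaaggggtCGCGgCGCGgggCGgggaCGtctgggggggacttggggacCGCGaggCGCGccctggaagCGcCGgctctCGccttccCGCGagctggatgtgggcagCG
They lie on the minus strand at chr1:74951673-74951922 (Ihh), chr15:98898541-98898790 (Dhh) and chr13:63565736-63565985 (Ptch1). The Ihh and Dhh windows end at the gene starts of GENCODE M21, whereas the Ptch1 window lies 7863 bases inside the longest GENCODE extent of the gene, at another start. The Ptch1 window was the richest in CpG of these 3, with 41 dinucleotides (observed over expected 1.08, higher than in 97.3% of the 32851 windows in the table). The Ihh window held 24 (0.783, higher than in 79.7%) and the Dhh window 9 (0.432, higher than in 54.8%). The windows of the 7 matched genes, which lack Gli1 and Shh, were searched on both strands for the GLI consensus GACCACCCA and for the shorter CCACCCA that it contains. None of the 7 held either, and among all windows 0.225% held the longer and 8.11% the shorter motif. A missing match says only that these letters are not in these windows.

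Of the 9 genes, 7 passed the filter on low counts and were tested with edgeR's quasi-likelihood test over all 15283 genes that passed. Ihh and Dhh passed through the normal group and Gli1 through HPmECC alone, so a difference in these 3 was set by the filter, and Shh and Hhip did not pass. In mECC against normal, 4 members were called higher and 2 lower at an adjusted p under 0.05, where 86.3% of all tested genes were called, 42.1% higher and 44.2% lower. In HPmECC against normal, 5 were called higher and 2 lower, with 86.4% of all genes called, 43% higher and 43.3% lower. Between the lines, 4 were called higher in HPmECC and 1 lower, with 68.3% of all genes called, 33.8% higher and 34.5% lower. With library totals in place of TMM, 59.1% in place of 48.8% of all calls in mECC against normal were higher. The members' shares are near this background, and the counts say little about the hedgehog genes as a set; the sizes and directions below are the measurement. The comparisons with normal cells share the same 4 normal libraries and are not independent of each other. Where groups are said below not to overlap, the share of all genes that separate in this way was not computed. Such separation is therefore not read as particular to the members.

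**Figure D1:**
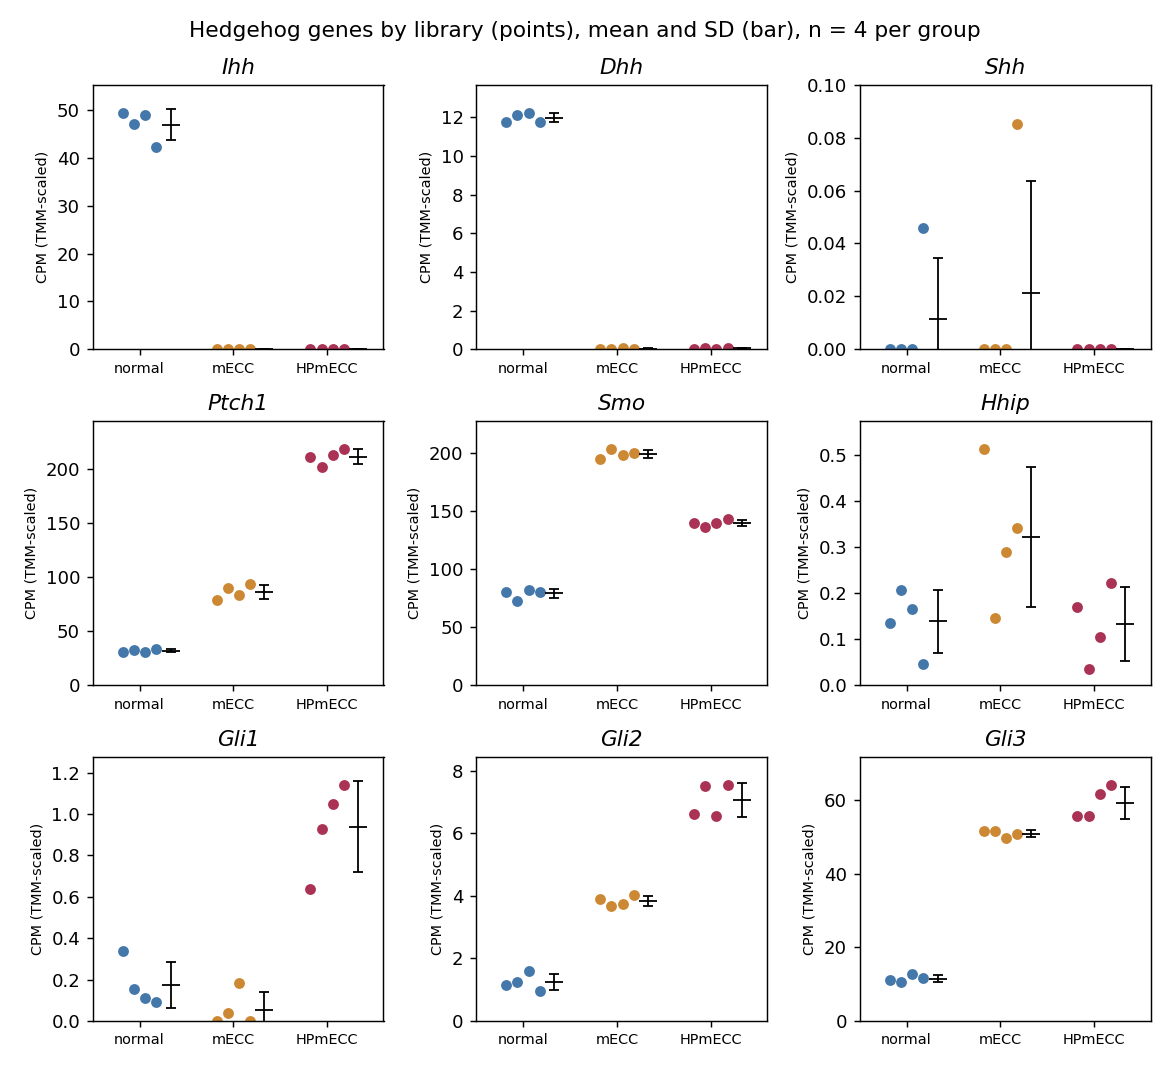
Level of each hedgehog gene in every library. Each point is 1 library, the vertical axis is TMM-scaled CPM on a linear scale from 0 with its own range per gene, and the bar is the mean with SD (n = 4). Ihh and Dhh are seen in the normal group, Ptch1 climbs from normal over mECC to HPmECC, and Shh and Hhip stay below 1 CPM in all 12 libraries.

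Ihh (Indian hedgehog, ENSMUSG00000006538, chromosome 1 at 74945315 to 74951672 of GRCm38) was the main ligand of the normal cultures. The normal libraries held 729, 908, 889 and 922 counts, the mECC libraries 3, 0, 3 and 2, and the HPmECC libraries 1, 0, 0 and 1. All 4 normal libraries stood far above the other 8, with no overlap. This is 46.9 ± 3.23 CPM in normal cells (SD, n = 4), against 0.0805 ± 0.0565 CPM in mECC. Over the group totals the normal level was 594 times that of mECC (3448 against 8 counts, exact 95% counting interval 301 to 1378) and 2276 times that of HPmECC (2 counts, 629.5 to 18800). Counting intervals cover counting error only. edgeR gave adjusted p = 1.22e-19 for mECC and 1.17e-19 for HPmECC against normal. Ihh passed the filter through the normal group, so these p-values are no separate support for the difference. The summed epithelial markers were lower in the same libraries, at 1621 to 1661 CPM in mECC against 9560 to 9904 CPM in normal cells; their part in the result was not tested. The 8 and 2 counts in mECC and HPmECC did not differ past the threshold (ratio 3.83, interval 0.764 to 37.0, edgeR adjusted p = 0.107), although without mECC replicate 2, the library at 0, they did (log2 change -2.12, adjusted p = 0.028).

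Dhh (Desert hedgehog, ENSMUSG00000023000, chromosome 15 at 98891152 to 98898540), a ligand known from Sertoli cells, Schwann cells and endothelium, showed the same restriction at a lower level. The normal libraries held 174, 234, 222 and 257 counts, which is 11.98 ± 0.234 CPM. In mECC only replicate 3 had any, with 2 counts, and in HPmECC replicates 2 and 4 had 2 each. The normal libraries were tightly grouped and did not overlap with either line. Dhh passed the filter through the normal group, so its p-values against normal are no separate support for the difference. The normal level was 612 times that of mECC (887 against 2 counts, interval 169 to 5058, edgeR adjusted p = 2.34e-15) and 293 times that of HPmECC (4 counts, interval 114 to 1077, adjusted p = 3.35e-15). Between the lines 2 and 4 counts were not told apart (ratio 2.09, interval 0.299 to 23.1, adjusted p = 0.45). Without mECC replicate 3 the mECC group held 0 counts, and the edgeR log2 change between the lines moved from 0.89 to 3.06 (adjusted p = 0.0521). The Dhh annotation overlaps Rhebl1 on the same strand over 3389 bases. Rhebl1 ran in the other order, at 1.15, 2.93 and 6.27 CPM in normal, mECC and HPmECC. Of the 8 endothelial markers, which summed to 129 to 145 CPM in normal libraries, 7.06 to 8.32 in mECC and 17.5 to 18.9 in HPmECC, 6 were tested. All 6 were lower in mECC than in normal cells, and 5 were lower and 1, Egfl7, higher in HPmECC. Cdh5, Tek and Esam passed the filter through the normal group alone, so their lower calls were set by the filter. Cdh5 and Tek were at 0 in HPmECC, while Egfl7, Kdr and Vwf were higher in HPmECC than in mECC; the part of these markers in the result was not tested.

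Shh (Sonic hedgehog, ENSMUSG00000002633, chromosome 5 at 28456815 to 28467256) was close to undetected everywhere. Normal replicate 4 held 1 count, mECC replicate 4 held 2, and the other 10 libraries held 0. All groups are at or under the floor of 3 counts over 4 libraries, so no fold is given. On the TPM scale, which corrects for transcript length and allows genes to be compared, Ihh made up 86.5% ± 2.43 of the summed ligand level in normal cells. That sum was 40.1 ± 1.87 TPM in normal cells and at most 0.11 TPM in any mECC library and 0.06 TPM in any HPmECC library.

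Ptch1 (Patched 1, ENSMUSG00000021466, chromosome 13 at 63508328 to 63573598), the receptor that restrains Smoothened and a target of GLI factors, rose in both lines. The normal libraries stood at 30.5, 32.9, 30.7 and 32.9 CPM. The mECC libraries stood at 79.1, 89.6, 83.2 and 93.7 CPM, and the HPmECC libraries at 211, 202, 213 and 219 CPM. The 3 groups formed separate steps with no overlap between any of them. Ptch1 was 2.71-fold higher in mECC than in normal cells (edgeR log2 change of 1.44, SE 0.05, adjusted p = 2.74e-15) and 6.63-fold higher in HPmECC (2.73, SE 0.05, adjusted p = 8.88e-20). HPmECC exceeded mECC by 2.45-fold (1.29, SE 0.04, adjusted p = 8.47e-15). Against the lines, the normal cultures thus held more Ihh and Dhh and less Ptch1; between the lines Ptch1 differed and the ligands were not called. Of the 10 stromal markers 6 were higher and 4 lower in each line against normal, and their part was not tested.

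Smo (Smoothened, ENSMUSG00000001761, chromosome 6 at 29735503 to 29761365), the transmembrane transducer that Ptch1 restrains, was highest in mECC. Normal libraries held 80.6, 72.8, 81.9 and 80.2 CPM, mECC libraries 194, 203, 198.5 and 199.6 CPM, and HPmECC libraries 139, 136, 139.7 and 143 CPM. The groups did not overlap. mECC was 2.52-fold above normal cells (edgeR log2 change of 1.34, SE 0.03, adjusted p = 1.48e-17) and HPmECC 1.77-fold above them (0.82, SE 0.03, adjusted p = 3.14e-14). Between the lines Smo was 1.43-fold lower in HPmECC (-0.51, SE 0.03, adjusted p = 6.63e-11), whereas Ptch1 was higher there. On the TPM scale Smo therefore stood at 4.37 ± 0.591 times Ptch1 in normal cells, 4.45 ± 0.247 times in mECC and 1.275 ± 0.0281 times in HPmECC (SD, n = 4). The normal and mECC libraries overlapped in this ratio (3.72 to 5.15 and 4.13 to 4.65), and the HPmECC libraries lay apart at 1.26 to 1.32.

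**Figure D2:**
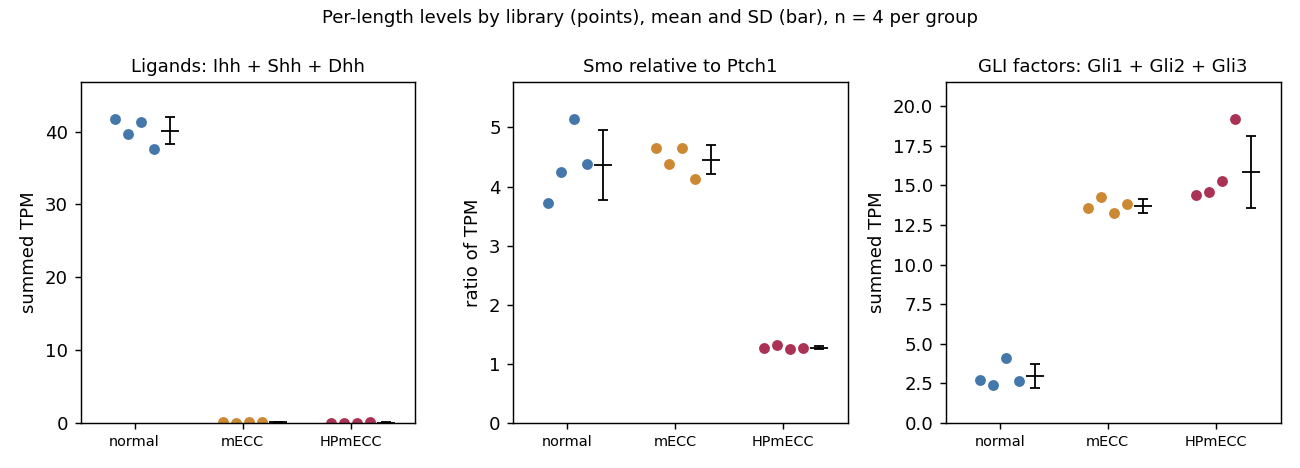
Per-length levels of hedgehog ligands, of Smo relative to Ptch1, and of the GLI factors. Points are libraries, the vertical axes are summed TPM or a ratio of TPM from 0, and bars are mean and SD (n = 4). Summed ligand TPM is 37.7 to 41.8 in normal libraries and at most 0.11 elsewhere, and the ratio of Smo to Ptch1 is 3.72 to 5.15 in normal and mECC libraries and 1.26 to 1.32 in HPmECC. The GLI sum is 2.40 to 4.12 in normal libraries and 13.2 to 19.2 in the lines. The values 4.12 (normal replicate 3) and 19.2 (HPmECC replicate 4) belong to libraries whose Gli2 TPM stood apart from their group.

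Gli3 (ENSMUSG00000021318, chromosome 13 at 15463235 to 15730026), the main source of GLI repressor, was the most abundant of the 3 GLI genes in every group. The normal libraries held 11.03, 10.5, 12.9 and 11.6 CPM, the mECC libraries 51.6, 51.8, 49.9 and 50.8 CPM, and the HPmECC libraries 55.8, 55.7, 61.8 and 64.2 CPM. Both lines stood clear of normal cells, by 4.42-fold in mECC (edgeR log2 change of 2.15, SE 0.06, adjusted p = 1.33e-16) and 5.15-fold in HPmECC (2.36, SE 0.06, adjusted p = 2.48e-17). The step between the lines was small, 1.16-fold (0.22, SE 0.05, adjusted p = 0.000555), and was not called on the log2(TPM + 1) scale with limma (0.11, adjusted p = 0.186).

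Gli2 (ENSMUSG00000048402, chromosome 1 at 118834132 to 119053619), the main source of GLI activator, was present at low levels and rose in both lines. Its counts were 17, 24, 29 and 21 in normal libraries, 91, 101, 103 and 95 in mECC, and 155, 210, 125 and 205 in HPmECC. As CPM, which allows for depth, this is 1.24 ± 0.266, 3.83 ± 0.167 and 7.05 ± 0.546, with no overlap between groups. mECC was 3.10-fold above normal cells (edgeR log2 change of 1.63, SE 0.15, adjusted p = 5.92e-09), HPmECC 5.72-fold above them (2.52, SE 0.14, adjusted p = 2.59e-12) and 1.85-fold above mECC (0.89, SE 0.11, adjusted p = 7.48e-07). The deposited TPM values of Gli2 were less even than its counts. Normal replicate 3 was given 1.76 TPM where the other 3 had 0.21 to 0.28, and HPmECC replicate 4 was given 4.05 TPM where the others had 1.67 to 1.89. The transcript length implied by counts over TPM was 25.3% and 58.4% of the median library in these 2 libraries. On the log2(TPM + 1) scale Gli2 was not called between the lines (0.27, limma adjusted p = 0.406).

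Gli1 (ENSMUSG00000025407, chromosome 10 at 127329882 to 127341974), an activator induced by hedgehog signaling, was barely transcribed. Normal libraries held 5, 3, 2 and 2 counts, mECC libraries 0, 1, 5 and 0, and HPmECC libraries 15, 26, 20 and 31. Gli1 passed the filter through HPmECC alone, so p-values of HPmECC against the other groups are no separate support for a difference. HPmECC lay above all other libraries and stood at 0.94 ± 0.218 CPM. It was 16.02 times the level of mECC over group totals (92 against 6 counts, interval 7.09 to 44.8, edgeR log2 change 3.88, adjusted p = 3.36e-06) and 5.81 times that of normal cells (12 counts, interval 3.17 to 11.7, adjusted p = 9.29e-05). Normal and mECC libraries overlapped (ratio 2.76, interval 0.958 to 8.96, adjusted p = 0.106), but without mECC replicate 3, which held 5 of the 6 mECC counts, Gli1 was called lower in mECC (log2 change -3.15, adjusted p = 0.0052). Leaving out the same library moved the log2 change of HPmECC against mECC from 3.88 to 5.64. A gene antisense to Gli1 along most of its length, Gm47200, was at 0 CPM in every group. Per length, Gli1 made up 2.92% ± 0.312 of the summed GLI level in HPmECC, 0.224% ± 0.361 in mECC and 2.35% ± 1.76 in the normal group, with normal libraries (0.971% to 4.78%) spanning those of HPmECC. In the same order Gli3 made up 82.7% ± 4.26, 87.5% ± 1.29 and 79.7% ± 15.8 of it. The 2 libraries whose Gli2 TPM stood apart had the lowest Gli3 shares of their groups. Normal replicate 3 had 56.3%, against 85.7% to 90.9% in the other normal libraries. HPmECC replicate 4 had 76.4%, against 83.8% to 85.3% in the other HPmECC libraries.

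Hhip (Hedgehog-interacting protein, ENSMUSG00000064325, chromosome 8 at 79965851 to 80058006), which binds ligand outside the cell and is a GLI target, was near the limit of detection in all libraries. It held 2, 4, 3 and 1 counts in normal libraries, 12, 4, 8 and 8 in mECC and 4, 1, 2 and 6 in HPmECC. The groups overlapped in all comparisons. With the filter on low counts removed, edgeR gave adjusted p = 0.0816 for mECC against normal, 0.0853 between the lines and 1 for HPmECC against normal. Over group totals mECC was 2.32 times normal cells (interval 1.11 to 5.29) and 2.36 times HPmECC (interval 1.20 to 4.89). Ptch1 at 211 ± 6.93 CPM in HPmECC thus stood beside Gli1 at 0.94 and Hhip at 0.133 CPM.

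**Figure D3:**
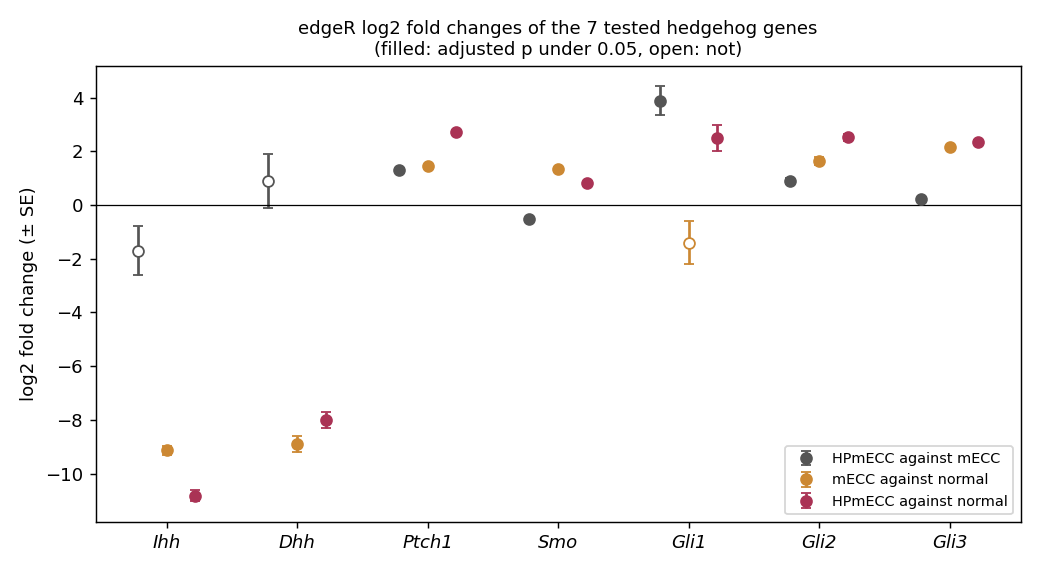
edgeR log2 fold changes of the 7 tested hedgehog genes in the 3 comparisons, with SE bars; filled points passed an adjusted p of 0.05 and open points did not. Ptch1, Gli2 and Gli3 lie above 0 in all 3 comparisons, Smo lies below 0 between the lines, and the values of Ihh and Dhh against normal rest on at most 8 counts in a line, so few counts set their size.

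Other genes of the pathway were described from lists chosen by role. For each list the share of tested genes that edgeR called can be read against the share over all genes, 86.3% in mECC against normal (42.1% higher, 44.2% lower), 86.4% in HPmECC against normal (43% and 43.3%) and 68.3% between the lines (33.8% and 34.5%). The median log2 fold change over all 15283 genes was -0.00169 between the lines, -0.018 in mECC against normal and 0.00117 in HPmECC against normal.

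Genes that make and release the ligand were split. Of 7, 5 were tested, and all 5 were called in each comparison: 3 higher and 2 lower in mECC against normal, 2 and 3 in HPmECC against normal, and 3 and 2 between the lines. Scube1 passed the filter through the normal group, so its calls against normal were set by the filter, and its call between the lines rests on 9 against 0 counts. Hhat, the acyltransferase that adds palmitate to hedgehog ligands, rose 3.29-fold in HPmECC over normal cells and 2.28-fold over mECC (16.6 ± 1.40, 7.30 ± 0.378 and 5.04 ± 0.293 CPM in HPmECC, mECC and normal). Disp1, the transporter that releases the ligand, was 1.54-fold lower in HPmECC than in mECC. The secreted release factor gene Scube1 fell from 657 counts in normal cells to 0 in mECC (at least 302-fold lower, with 3 counts over the group as the floor) and to 9 in HPmECC (91.5-fold), and Scube3 fell 8.39-fold and 2.66-fold. Glg1, which encodes a Golgi glycoprotein listed here, rose 2.09-fold in mECC. The highest edgeR adjusted p among the folds given here was 1.24e-09. For differences without a fold, edgeR gave adjusted p = 0.00166 for Scube1 between the lines. It gave 3.17e-05 for Hhat in mECC against normal.

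Among 6 co-receptor genes 5 were tested. In mECC against normal 2 rose and 3 fell, in HPmECC against normal 3 rose and 2 fell, and between the lines 1 rose, 2 fell and 2 were not called. Gpc3 passed the filter through the normal group alone. Gas1, a membrane-anchored co-receptor that promotes hedgehog signaling, rose 19.8-fold in mECC and 21.0-fold in HPmECC (231 ± 20.2 and 245 ± 19.2 against 11.6 ± 1.26 CPM; edgeR adjusted p at most 1.88e-19). Cdon, another co-receptor, rose from 37.9 ± 2.19 CPM in normal cells to 123 ± 5.12 (mECC) and 95.8 ± 2.51 CPM (HPmECC). Boc, its close relative, was lowest in mECC at 9.88 ± 0.185 CPM and 3.93-fold higher in HPmECC (adjusted p = 1.67e-14). Gpc3, a glypican that competes with Patched for ligand, fell from 1553 counts in normal cells to 3 in each line (ratio 714, interval 244 to 3465, against mECC, and 683, interval 233 to 3317, against HPmECC). Lrp2, an endocytic receptor of epithelia, fell 20.1-fold and 36.5-fold.

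Of 27 genes of the intracellular relay, all tested, 16 were called higher and 9 lower for mECC against normal (median log2 fold change 0.21), and 17 higher and 9 lower in HPmECC (0.27), so 92.6% and 96.3% were called. Kif7, the ciliary kinesin that controls GLI processing, rose 4.06-fold and 6.67-fold, and the arrestin genes Arrb2 (3.58-fold in mECC) and Arrb1 (4.30-fold in HPmECC) rose as well. Gpr161, a ciliary receptor that promotes GLI repressor formation, fell 4.77-fold in mECC and 6.13-fold in HPmECC. Sufu, which holds GLI factors in the cytoplasm, stood at 28.7 ± 1.37 CPM in normal cells and 56.9 CPM in both lines. Between the lines 13 were higher and 8 lower in HPmECC, but with library totals in place of TMM 9 were higher and 10 lower, so no direction is given for the list. Within it Arrb1 was 2.30-fold and Kif7 1.64-fold higher in HPmECC, and Stk36, a kinase related to Drosophila Fused, 1.53-fold lower.

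Genes of the primary cilium and intraflagellar transport, the compartment in which Smoothened acts, had more higher than lower calls in both lines against normal. All 35 were tested: 25 rose and 7 fell in mECC against normal (median log2 fold change 0.59), and 25 rose and 5 fell in HPmECC (0.73). The shares called, 91.4% and 85.7%, were near the 86.3% and 86.4% of all genes, of which 42.1% and 43% were higher. Kifap3, an adaptor of the kinesin motor of the cilium, rose 5.98-fold and 6.17-fold, and Wdr19, a subunit of the transport train, 4.56-fold and 4.61-fold. Ift80 rose 3.49-fold in mECC, and Ift122 2.92-fold in HPmECC. The largest differences between the lines were in Bbs1 (2.67-fold higher in HPmECC), Fuz (1.71-fold) and Dync2h1 (1.66-fold), while 8 genes were higher and 14 lower in all (median -0.03). With library totals in place of TMM, 28 were higher and 3 lower in mECC, and 28 and 4 in HPmECC, while over all 15283 genes 7866 and 7725 were then higher. The 8 markers of motile ciliated epithelium summed to 6.96 to 8.19 CPM in normal cells, 28.8 to 34.0 CPM in mECC and 8.34 to 9.46 CPM in HPmECC. Most of the mECC sum was Foxj1 (25.1 CPM, against 3.91 in normal cells), and of the 5 tested 3 were higher and 1, Rsph1, lower in mECC than in normal cells; their part was not tested.

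Known GLI target genes beyond the 9 did not move as 1 block. Of 22, 20 were tested, with 13 higher and 4 lower in mECC against normal (median log2 fold change 1.15), 13 higher and 6 lower in HPmECC (1.08), and 10 higher and 6 lower between the lines (0.14). The shares called were 85%, 95% and 80%. Foxl1 and Foxf1 passed the filter through the lines alone, so their calls against normal were set by the filter. Grem1, a secreted BMP antagonist, rose from 0.786 ± 0.281 CPM in normal cells to 99.5 ± 1.59 in mECC and 110.2 ± 11.2 in HPmECC (edgeR adjusted p at most 6.33e-20). Foxl1, a forkhead factor of gut and other mesenchyme, had 0 counts over the normal libraries, and 227 (mECC) and 225 (HPmECC) in the lines (at least 54.9-fold and 56.8-fold higher). Its relative Foxf1 rose from 0.326 ± 0.183 to 6.78 ± 0.341 and 8.07 ± 0.766 CPM. Mycn fell from 29.7 CPM in normal cells to 1.10 CPM in mECC (26.9-fold) and to 2 counts in HPmECC (ratio 1449, interval 401 to 11980), and Ccnd1, which encodes cyclin D1, fell from 837 ± 15.6 to 111 ± 1.83 and 139 ± 5.50 CPM. Between the lines Osr1 was 8.30-fold lower in HPmECC, and Tbx3 (4.85-fold) and Snai1 (4.51-fold) were higher. These targets are known from several tissues and most answer to other pathways too. Of the 10 stromal markers 6 were higher and 4 lower in each line against normal, and their part was not tested.

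The axis that controls and reads Ihh in the uterus had more lower than higher calls. Of 15 genes, all tested, 11 fell and 3 rose in mECC against normal (median log2 fold change -1.38), 10 fell and 3 rose in HPmECC (-0.93), and 8 fell and 5 rose between the lines (-0.50). The shares called against normal, 93.3% and 86.7%, stood beside 86.3% and 86.4% of all genes, of which 44.2% and 43.3% were lower. Pgr, the progesterone receptor that drives Ihh in uterine epithelium, rose, from 19.3 ± 1.07 CPM in normal cells to 83.8 ± 7.10 in mECC and 59.1 ± 7.54 in HPmECC. Sox17, an epithelial factor, fell 463-fold in mECC, and from 26647 counts in normal cells to 0 in HPmECC (at least 11730-fold lower). Sox17 passed the filter on low counts through the normal group, so its calls against normal are no separate support for the difference. Gata2 stood at 111 ± 3.24, 22.1 ± 1.15 and 14.7 ± 0.411 CPM in normal, mECC and HPmECC. Downstream in the stroma, Nr2f2, which encodes COUP-TFII, stood at 33.9 ± 1.38, 67.4 ± 2.13 and 42.0 ± 0.510 CPM, and Hand2 fell 67.3-fold in HPmECC against normal and 11.9-fold against mECC. Fst, the activin-binding follistatin, fell 28.8-fold in mECC and 109-fold in HPmECC, and Areg, an EGF family ligand gene, fell 29.4-fold in mECC. Wnt4 was higher in mECC than in normal cells and 16.6-fold lower in HPmECC than in mECC. It stood at 6.41 ± 0.844, 55.7 ± 0.968 and 3.41 ± 0.724 CPM in normal, mECC and HPmECC.

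**Figure D4:**
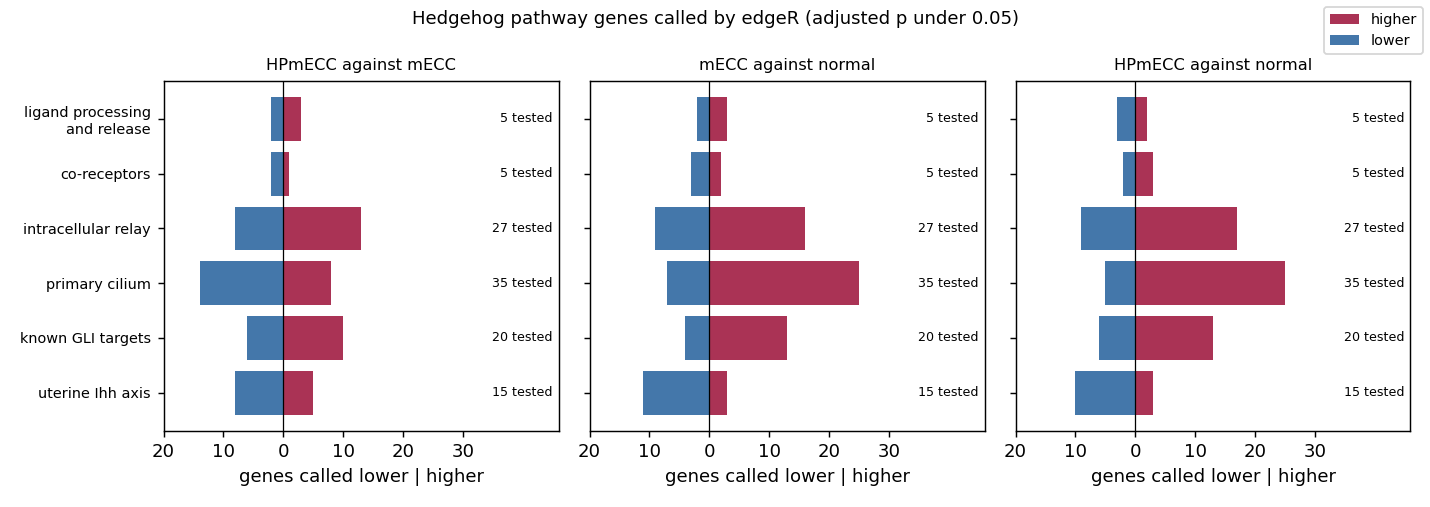
Genes of 6 hedgehog-related lists called higher (right of 0) or lower (left of 0) by edgeR in each comparison, with the number tested at the right edge. The primary cilium list has 25 genes called higher in each line against normal, and the uterine Ihh axis has more lower than higher calls in all 3 comparisons.

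The genes whose levels across the 12 libraries were most like those of a member were named by the Pearson correlation of log2(CPM + 1) among 11487 candidates. These are descriptions of 3 groups of 4 and carry no test, since libraries of a group share their source. For Ihh they were Cdh5 (r = 0.9998), Crct1, Guca2b, Slc1a1 and Cd55 (each 0.9997), all at 39.9 to 276 CPM in normal cells and under 0.06 CPM in both lines. For Ptch1 they were Fmnl2 (0.999), F13a1 (0.9987), Clip1 (0.9981), Slc44a5 (0.9979) and Irf2bpl (0.9979), which climbed from normal over mECC to HPmECC. F13a1, which encodes a subunit of coagulation factor XIII, did so from 0.242 over 29.5 to 664 CPM. For Gli1, whose counts are low, the best were lower: Ruvbl2 (0.9654), Lyar (0.9653), Smg9 (0.9648), Adsl (0.9644) and Mcm6 (0.9642).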

How the data were processed

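Expression was measured by RNA sequencing of 12 mRNA libraries. The submitters' processing notes name Trim Galore, STAR 2.6.1a, RSEM 1.3.1 and GRCm38; for annotation release and strand setting, the sources used here give nothing. The authors deposited estimated counts per gene as whole numbers, and TPM values scaled to transcript length; FPKM was not used. RSEM divides reads shared by overlapping or similar genes. Symbols matched 55144 of 55385 identifiers, and positions come from GENCODE M21 on GRCm38.

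edgeR 4.0.16 (R 4.3.3) was fitted to the counts of all 12 libraries with TMM factors, filterByExpr (minimum 10 counts) and Benjamini-Hochberg adjustment over 15283 genes. SEs were derived from the F statistic. The biological coefficient of variation was 4.27%. Count ratios have exact 95% conditional intervals. Alternatives used DESeq2 1.42.0 and limma 3.58.1 on log2(TPM + 1) and log2(TPM + 0.1), for genes with 0.5 TPM in 4 libraries. On data simulated for HPmECC against mECC over 14941 genes, edgeR recovered 96% to 100% of changes of log2 size 1 and 100% of size 2, with 3.88% of its calls in genes that were not changed. Only 50 genes were changed per size and direction, and none with few counts. The simulation therefore does not cover Gli1, Ihh and Dhh at few counts, or data in which most genes differ.

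The members and lists were chosen with earlier results of these data known. Named were all 9 members, of each list the 3 called genes of largest change with at least 2 CPM, and for Ihh, Ptch1 and Gli1 the 5 most similar genes with at least 5 CPM. Cdon, Sufu, Foxf1, Ccnd1, Pgr, Gata2, Nr2f2, the gene overlapping Dhh and the gene antisense to Gli1 were added after their values were seen. Figures used matplotlib 3.10.9.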

Additional observations from a re-analysis of the deposited data

Results flagged for a closer look

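In a group of 4 libraries, a value set apart from the other 3 by more than Dixon's 95% critical value was taken for a closer look. Chance alone gives about 1 in 20 groups, and there were 54 sets of values (9 genes, 3 groups, CPM and TPM). Shh in HPmECC, at 0 in all 4 libraries, could not be examined on either scale. CPM and TPM of the same libraries are not independent, so the 54 are not separate groups. Gli2 stood apart on the TPM scale alone, at 1.76 TPM in normal replicate 3 against 0.21 to 0.28 TPM in the others, and at 4.05 TPM in HPmECC replicate 4 against 1.67 to 1.89 TPM; its CPM values in these libraries, 1.60 and 7.55, lay with or near the rest of their groups. The remaining cases rest on 1 or 2 counts in 1 library with 0 in the other 3. They were Shh in normal replicate 4 (0.0459 CPM, 0.02 TPM), Shh in mECC replicate 4 (0.0851 CPM, 0.05 TPM) and Dhh in mECC replicate 3 (0.0724 CPM, 0.03 TPM).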

How the results depend on the processing

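Of 429 recomputed member fold changes 423 kept their direction and their side of the threshold, 4 lost their call, 2 gained one and 0 reversed. With limma on log2(TPM + 1) and on log2(TPM + 0.1), 2 members were called between the lines in place of 5: Gli2 and Gli3 lost their calls (adjusted p from 0.186 to 0.553), and Gli1, under 0.5 TPM in all libraries, was not tested. Gains were Ihh between the lines without mECC replicate 2 and Gli1 in mECC against normal without mECC replicate 3. Leaving out each library in turn, 5 to 6 members were called between the lines, 6 to 7 in mECC against normal and 7 in HPmECC against normal. Same-numbered libraries did not deviate together (correlations of deviations from -0.0514 to 0.0797, and 6 of 24 best matches with the own number), so no pairing by number was seen. A weak shared effect could be missed by this check, and the labels do not say whether the numbers pair the samples. The replicate block gave 5, 6 and 7 called members. With library totals in place of TMM the median of all genes moved to 0.221 in mECC and 0.197 in HPmECC against normal, and 59.1% in place of 48.8% of all calls in mECC against normal were higher; no member changed direction. Depth limits Shh, Hhip and Gli1, and Ihh and Dhh within the lines.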

Other observations

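The transcript length that counts over TPM imply for Ptch1 was 73.4% of the median library in normal replicate 1 and 93.5% to 102% in the other 11. That library had 8.72 TPM of Ptch1, against 6.43 to 7.33 TPM in the other normal libraries, while its CPM (30.5) was the lowest of the 4.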
